A study of Mus musculus with 6 samples.

Results

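Glutathione and NRF2 antioxidant genes were followed in epithelial cells of the mouse large intestine with and without the histone deacetylase HDAC3. The set holds 10 genes listed by name (Gclc, Gclm, Gss, Gsr, Gpx1, Gpx2, Nqo1, Hmox1, Txnrd1 and Nfe2l2) of the 19533 genes measured. Each was read by a probe set that names exactly 1 gene, and the brightest was to be taken where a gene had several. All 10 had 1 such probe set, so that choice did not affect them.

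The cells were live, EpCAM-positive intestinal epithelial cells (IECs) of C57BL/6 mice kept germ-free, that is, without a microbiota. The controls were 3 HDAC3FF mice and the knockouts 3 HDAC3ΔIEC mice, in which the deletion is restricted to IECs, with 1 Affymetrix array of total RNA per mouse. The question is how loss of Hdac3 bears on transcripts of these cells when bacteria are absent. The labels do not name the driver of the deletion, the age of the mice or their sex. Signals are log2 values as deposited, so a difference of 1 is a doubling.

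Glutathione is a tripeptide that epithelial cells use to reduce peroxides and to conjugate reactive compounds. Its synthesis starts with glutamate-cysteine ligase, made of the catalytic subunit GCLC and the modifier GCLM, and ends with glutathione synthetase. Glutathione peroxidases oxidise it and glutathione reductase restores it with NADPH. NRF2, the product of Nfe2l2, is held at low protein levels by KEAP1 and, once released, binds antioxidant response elements with small MAF proteins to raise many of these genes, so its activity is controlled largely at the protein level, which arrays do not measure. The colon epithelium meets oxidants, dietary electrophiles and heme, and GPX2 is the glutathione peroxidase best known from gut epithelium.

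Hdac3 itself had mean signals of 7.12 ± 0.21 on the HDAC3FF arrays and 6.27 ± 0.29 on the HDAC3ΔIEC arrays (SD, n = 3 each), and its difference of -0.86 ± 0.17 (SE) missed the threshold (limma adjusted p = 0.0937). Any probe that lies outside the deleted exons would check nothing. One array stood apart by sex-linked genes. On HDAC3ΔIEC replicate 3 the Y-linked gene Eif2s3y read 8.39, against 3.07 to 3.17 on the other 5 arrays, and Xist read 4.63, against 9.84 to 10.62. For the genes and lists rerun without that array, ended calls are stated, with values for Gclc and C1qa. The sign of Gpx2 turned without that array and is given with its value. That of Keap1 turned too, at differences near 0. All 11 colon epithelium markers lay above the median signal of all genes, Epcam at 10.91 and 10.85 in the HDAC3FF and HDAC3ΔIEC means, while 12 of 15 myeloid, 8 of 9 T and NK cell, 6 of 7 B and plasma cell and 6 of 7 endothelial markers lay below it, as did 6 of 10 fibroblast and muscle markers. These are bulk samples, in which fewer cells of a type and less RNA per cell cannot be told apart. Precision is limited by the 3 arrays in each group.

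The short stretches below are shown because they hold the only matches, among the promoter windows of these genes, to the core of the antioxidant response element. The letters searched were TGACNNNGC on both strands, in RefSeq windows (build GRCm38.p6) from 250 bases before to 50 bases after each gene start. Of the 10 genes, 7 had windows in the table, 9 windows in all, and 3 windows held a match, those of Gclm, Nfe2l2 and 1 of the 3 windows of Txnrd1. Gclc, Gsr and Hmox1 had no entry. Of all 32851 promoter windows of the same length, 12.4% held a match. Each stretch is printed 5′ to 3′ on the gene's strand with the match in capitals. The match lies on the gene's strand in Nfe2l2 and on the opposite strand in Gclm and Txnrd1, where it reads TGACGGTGC and TGACAAAGC. The matches start 134, 240 and 92 bases before the gene start for Gclm, Nfe2l2 and Txnrd1. The printed stretches, which hold the matches and their flanks, lie at chr3:122245393-122245461 (plus strand), chr2:75704865-75704913 (minus strand) and chr10:82859084-82859152 (plus strand).
Gclm: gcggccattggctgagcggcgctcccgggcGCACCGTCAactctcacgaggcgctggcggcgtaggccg
Nfe2l2: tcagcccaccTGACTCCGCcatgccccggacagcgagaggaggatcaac
Txnrd1: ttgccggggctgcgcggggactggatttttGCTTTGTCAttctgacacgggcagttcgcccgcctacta
The stricter letters TGACTCAGC, any match to which also matches TGACNNNGC, were in none of the 9 windows and in 0.454% of all windows. A match is a run of letters, not a binding site, and these arrays do not measure NRF2 binding.

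Gclc, the catalytic subunit of the first step of glutathione synthesis, was higher in HDAC3ΔIEC, and it was the 1 gene of the 10 that passed over all genes. Over all 19533 genes 0.701% passed, 0.369% as higher and 0.333% as lower. Of the 10 differences, 9 were positive. The groups did not overlap for 6 genes (Gclc, Gclm, Gsr, Gpx1, Hmox1 and Txnrd1), each higher in HDAC3ΔIEC, beside 16.2% of all genes, 8.45% higher and 7.70% lower. The median log2 fold change of the 10 genes was 0.40, against 0.01 over all genes, of which 3.50% lay at or above the median of the 10. That share counts single genes and is not a test of the set. All 10 had signals above the median of all genes, while the all-gene values include dim genes. The summed linear signal of the 11 colon epithelium markers moved with the groups too, from 35343 to 39598 in HDAC3FF and from 40777 to 43606 in HDAC3ΔIEC, and its part in these differences was not tested.

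**Figure D1:**
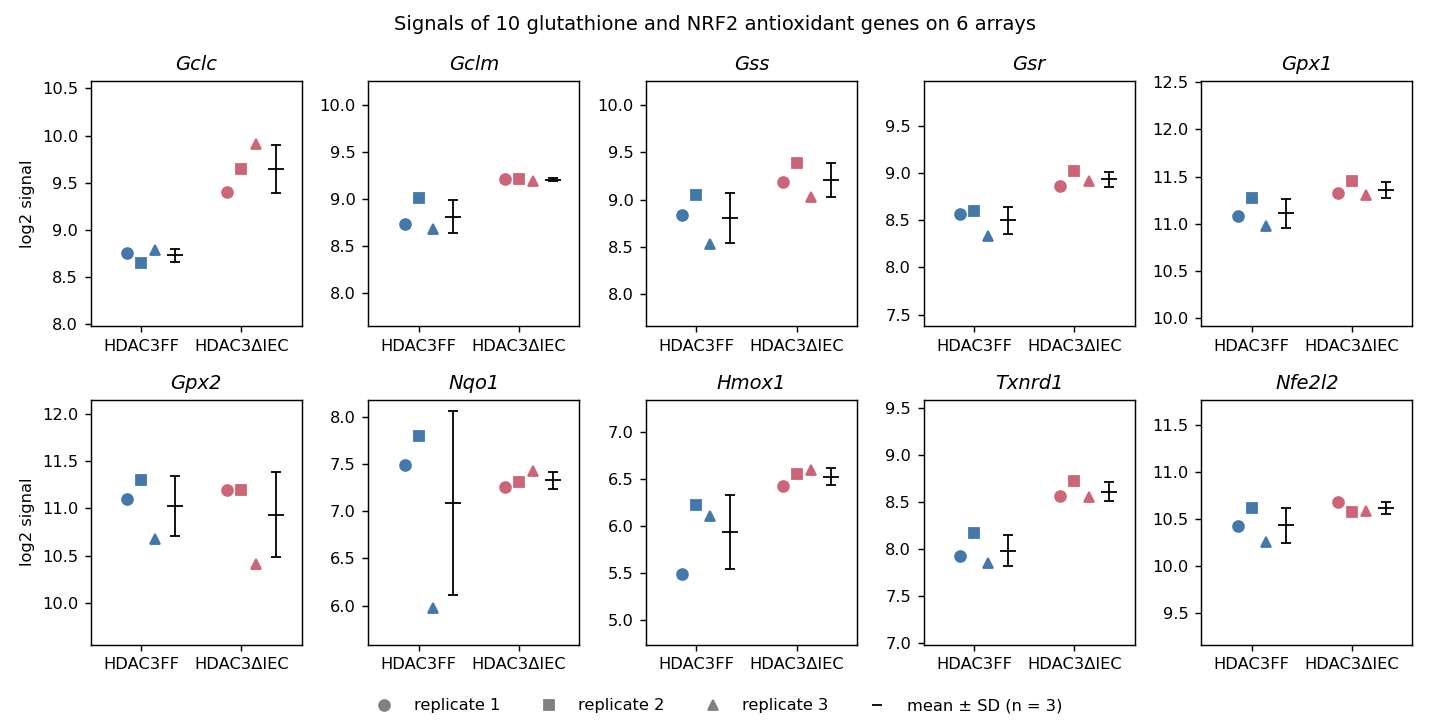
Log2 signal (y axis) of each gene on every array by genotype (x axis); points are single mice, marked by replicate number, and bars are the mean ± SD of 3 arrays. Each panel spans the same number of log2 units. Gclc shows the widest gap between the groups, and Nqo1 has 1 control array far below the other 5.

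Among the glutathione synthesis genes, Gclc read 8.75, 8.65 and 8.78 on the HDAC3FF arrays and 9.40, 9.64 and 9.91 on the HDAC3ΔIEC arrays. Every HDAC3ΔIEC value lay above every control value, with 0.62 between the nearest arrays, and the controls differed little among themselves. The rise was 1.90-fold, or 0.92 ± 0.13 on the log2 scale (SE, 95% interval 0.61 to 1.24, limma adjusted p = 0.0402). Permuting the arrays of this gene exactly gave a two-sided p = 0.1, and 3 arrays against 3 cannot give less. The HDAC3ΔIEC array with the Y-linked signal was the highest for Gclc, and without it the difference was 0.79 and no longer passed (limma adjusted p = 0.0760). The call was also lost without HDAC3FF replicate 1 or 2 or HDAC3ΔIEC replicate 2, at 0.93, 0.88 and 0.93, over an adjusted p range of 0.0328 to 0.180 with each of the 6 arrays left out, and with quantile normalization (0.89, limma adjusted p = 0.0580).

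Gclm, whose product lowers the feedback inhibition of the ligase by glutathione, read 8.73, 9.01 and 8.69 in HDAC3FF and 9.21, 9.22 and 9.19 in HDAC3ΔIEC. The HDAC3ΔIEC arrays were nearly equal and lay above all controls, of which replicate 2 came closest. The log2 fold change of 0.39 ± 0.10 (SE, 95% interval 0.15 to 0.64) did not pass (limma adjusted p = 0.183). Gss, glutathione synthetase, read 8.83, 9.05 and 8.53 in HDAC3FF and 9.19, 9.39 and 9.03 in HDAC3ΔIEC. Its groups overlapped by 1 array on each side, the highest control and the lowest knockout array. The difference of 0.40 ± 0.15 (SE, 95% interval 0.04 to 0.76) did not pass (limma adjusted p = 0.391), nor did the 0.26 without HDAC3FF replicate 3. Both subunits of the ligase thus had positive differences, 0.92 for the catalytic and 0.39 for the modifier subunit, and the difference between the 2 genes was not tested.

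Gsr, glutathione reductase, read 8.57, 8.60 and 8.33 in HDAC3FF and 8.86, 9.02 and 8.92 in HDAC3ΔIEC. The groups stood 0.27 apart at the nearest arrays. The log2 fold change was 0.44 ± 0.10 (SE, 95% interval 0.20 to 0.67), and it did not pass (limma adjusted p = 0.128). Txnrd1, the cytosolic thioredoxin reductase and a selenoprotein, is the matching NADPH-dependent enzyme of the thioredoxin system. It read 7.93, 8.17 and 7.85 in HDAC3FF and 8.56, 8.72 and 8.55 in HDAC3ΔIEC, so that all knockout arrays lay at least 0.38 above all controls. Its log2 fold change of 0.63 ± 0.11 (SE, 95% interval 0.37 to 0.89), a ratio of 1.55, missed the threshold (limma adjusted p = 0.0652). It passed with quantile normalization (limma adjusted p = 0.0427) and with array weights (0.0348). Txnrd1 moved away from the threshold with the replicate block (limma adjusted p = 0.125) and with ordinary unmoderated statistics (adjusted p = 0.306).

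The peroxidases, both selenoproteins, gave small differences. Gpx1, the widely expressed cytosolic peroxidase, read 11.08, 11.27 and 10.98 in HDAC3FF and 11.32, 11.45 and 11.30 in HDAC3ΔIEC. The groups were separated by only 0.02, and the log2 fold change was 0.25 ± 0.10 (SE, 95% interval 0.0037 to 0.49, limma adjusted p = 0.436). Gpx2, the gut epithelial peroxidase, read 11.10, 11.30 and 10.67 in HDAC3FF and 11.19, 11.20 and 10.41 in HDAC3ΔIEC. Replicate 3 of each group was the low array, and the groups overlapped. Its difference was -0.09 ± 0.25 (SE, 95% interval -0.67 to 0.49, limma adjusted p = 0.954), the only negative value of the 10, and it was 0.17 without HDAC3ΔIEC replicate 3 and 0.05 without HDAC3FF replicate 2.

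Nqo1 and Hmox1, widely used as readouts of NRF2, both had positive differences with all 6 arrays, and neither passed. The difference between the 2 genes was not tested. Nqo1, a quinone reductase, read 7.49, 7.80 and 5.98 in HDAC3FF and 7.26, 7.31 and 7.43 in HDAC3ΔIEC. The third control was the lowest of all 6 arrays and the other two controls were the highest. The log2 fold change of 0.24 ± 0.43 (SE, 95% interval -0.75 to 1.24, limma adjusted p = 0.917) became -0.31 without HDAC3FF replicate 3 and -0.36 without replicate 3 of both groups, and did not pass in either (limma adjusted p = 0.286 and 0.202). With array weights it was -0.03. The sign of Nqo1 therefore rested on 1 control array.

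Hmox1, the inducible heme oxygenase that splits heme into biliverdin, iron and carbon monoxide, read 5.49, 6.22 and 6.10 in HDAC3FF and 6.42, 6.55 and 6.60 in HDAC3ΔIEC. The HDAC3ΔIEC arrays all lay above the controls, and HDAC3FF replicate 1 was the low array. The log2 fold change was 0.58 ± 0.19 (SE, 95% interval 0.14 to 1.02) and did not pass (limma adjusted p = 0.278); without HDAC3FF replicate 1 it was 0.36. Macrophages also make heme oxygenase. Of the 15 myeloid markers measured, C1qa, a complement gene of macrophages, fell, none rose and 14 did not pass. Over all genes 0.333% passed as lower and 0.369% as higher. The groups did not overlap for 1 marker that was higher and 2 that were lower, beside 8.45% and 7.70% of all genes. The C1qa difference of -1.71 ± 0.19 (SE, limma adjusted p = 0.0204) lost its call without HDAC3FF replicate 1 (-1.86, adjusted p = 0.0633) and without HDAC3ΔIEC replicate 2 (-1.66, 0.123) or 3 (-1.62, 0.0736). The markers' summed linear signal ran from 602 to 669 in HDAC3FF and from 482 to 548 in HDAC3ΔIEC, opposite to Hmox1. Cd68 had a difference of 0.51 ± 0.13 (SE, limma adjusted p = 0.174), on the side of Hmox1. The part of either in the Hmox1 difference was not tested. The leukocyte gene Ptprc had mean signals of 4.48 and 4.32 in HDAC3FF and HDAC3ΔIEC, and the macrophage genes Marco and Cd163 of 4.40 and 4.34 and of 3.64 and 3.70, against a median signal of 5.34 over all genes. No array signal is 0, and background is not marked in the table.

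Nfe2l2, the gene of NRF2, read 10.43, 10.62 and 10.25 in HDAC3FF and 10.69, 10.57 and 10.59 in HDAC3ΔIEC. The HDAC3ΔIEC arrays fell within the upper part of the control range or just above it, and the groups overlapped. The log2 fold change of 0.18 ± 0.11 (SE, 95% interval -0.08 to 0.44) did not pass (limma adjusted p = 0.635). It was 0.09 without HDAC3FF replicate 3 and 0.27 without HDAC3FF replicate 2, and passed in neither.

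**Figure D2:**
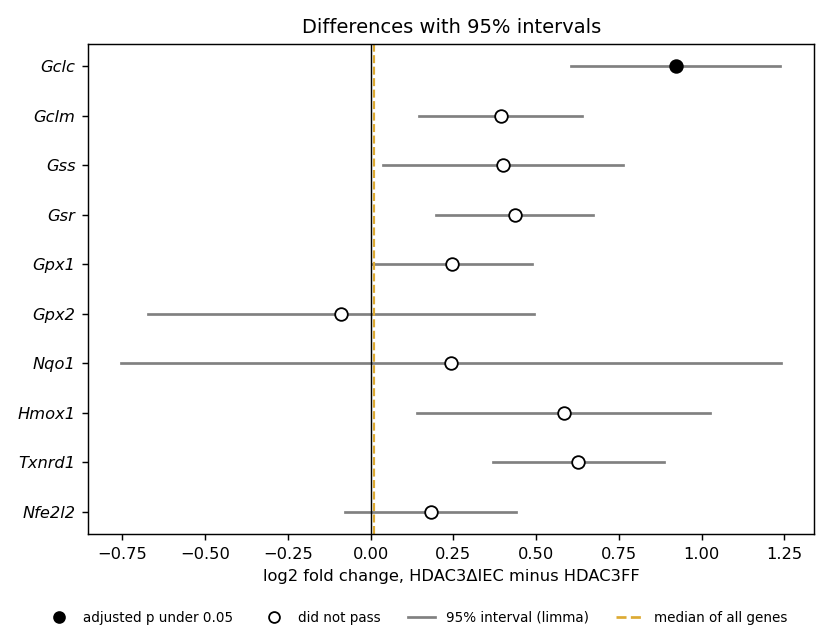
Log2 fold change of each gene (x axis, HDAC3ΔIEC minus HDAC3FF) with limma's 95% interval; the filled point passed at an adjusted p under 0.05, and the dashed line is the median of all genes, 0.01. Only the intervals of Gpx2, Nqo1 and Nfe2l2 cross 0, and these intervals are not adjusted for the number of genes.

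The controls varied in step. HDAC3FF replicate 2 was the highest control for 9 of the 10 genes, all but Gclc, and HDAC3FF replicate 3 was the lowest for 8, all but Gclc and Hmox1. Over all genes, these arrays were the highest and the lowest control for 33.2% and 34.9%. The median deviation of the 10 genes from their control means was 0.01, 0.19 and -0.15 on HDAC3FF replicates 1, 2 and 3, and 0.38, 0.46 and 0.36 on HDAC3ΔIEC replicates 1, 2 and 3. The median difference between the groups was 0.30 without HDAC3FF replicate 3 and 0.51 without HDAC3FF replicate 2, and it lay between these values with every other array left out. Gclc was the exception to this pattern among the controls, since its 3 control values had an SD of 0.07, against 0.14 (Gsr) to 0.97 (Nqo1) for the other 9 genes.

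**Figure D3:**
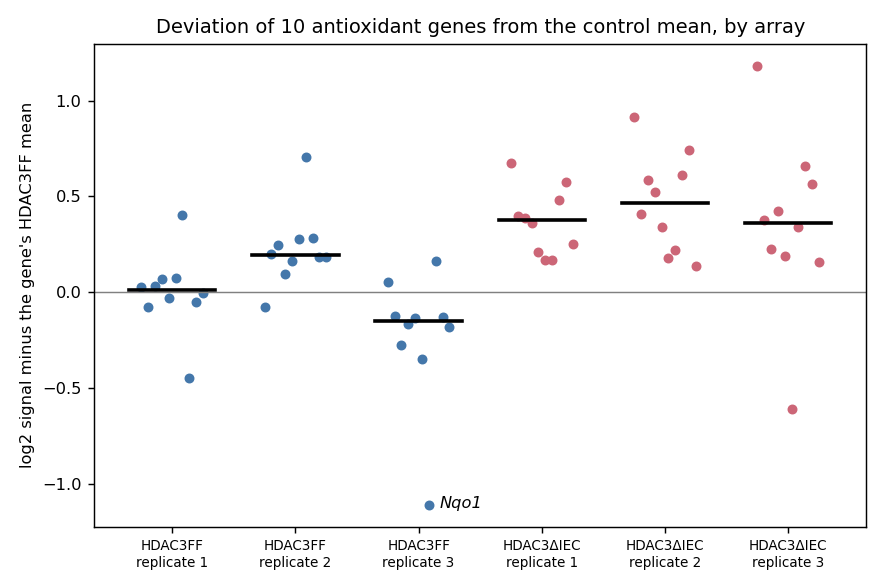
Deviation of each of the 10 genes from its HDAC3FF mean (y axis, log2 units) on every array (x axis); each point is a gene and the black line is the median of the 10. The 3 HDAC3ΔIEC medians, 0.36 to 0.46, lie above the control medians of -0.15 to 0.19.

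Of 15 measured genes that control NRF2, none passed with limma, and 3 had an unadjusted p under 0.05, against 11.2% of all genes. Keap1, the adaptor that targets NRF2 for degradation, had mean signals of 6.81 in both groups and a difference of -0.01 ± 0.10 (SE, 95% interval -0.23 to 0.22, limma adjusted p = 0.994). Its sign turned with quantile normalization and with arrays centred on their medians (both 0.01), and also without HDAC3ΔIEC replicate 3. Bach1, a repressor that competes with NRF2 at heme-responsive genes, had 0.21 ± 0.19 (SE, limma adjusted p = 0.801), with 0.09 without HDAC3FF replicate 1 or 2 and 0.44 without HDAC3FF replicate 3. Sqstm1, which encodes the autophagy receptor p62 that can sequester KEAP1, read 9.31, 9.49 and 10.33 in HDAC3FF and 10.71, 11.09 and 10.46 in HDAC3ΔIEC. Its groups did not overlap, but the third control came near the knockout arrays, and the difference of 1.04 ± 0.28 (SE, 95% interval 0.39 to 1.70) did not pass (limma adjusted p = 0.186). It passed with array weights (1.27, limma adjusted p = 0.0430), without HDAC3FF replicate 3 (1.35, 0.0205) and without replicate 3 of both groups (0.00879). Sqstm1 had a larger p with the replicate block (limma adjusted p = 0.359) and with ordinary unmoderated statistics (adjusted p = 0.515). Cand1, which exchanges adaptors on cullin ligases, had 0.32 ± 0.11 (SE, limma adjusted p = 0.325). The list's median was 0.07, and 10 of its 15 differences were positive, beside 53.5% of all genes. The median was 0.0020 without HDAC3ΔIEC replicate 2, 0.04 without HDAC3FF replicate 1 and 0.13 without HDAC3ΔIEC replicate 1.

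Other NRF2 targets gave 3 rises and no fall among 31 measured genes, and 28 did not pass. Over all genes 0.369% passed as higher and 0.333% as lower. Akr1b8, an aldo-keto reductase, read 8.03, 8.28 and 7.16 in HDAC3FF and 9.76, 10.29 and 9.91 in HDAC3ΔIEC. It rose 4.47-fold, with every knockout array above every control (log2 fold change 2.16 ± 0.29, SE, limma adjusted p = 0.0328). Me1, the cytosolic malic enzyme, an NADPH source, rose from 5.40 ± 0.31 to 7.55 ± 0.50 (SD, n = 3 each), by 2.15 ± 0.26 on the log2 scale (SE, limma adjusted p = 0.0276). A dimmer second probe set of Me1 gave 0.61 ± 0.38 (SE), and with the mean of both Me1 had 1.38 and did not pass (limma adjusted p = 0.124). Ephx1, the microsomal epoxide hydrolase, read 4.43, 4.52 and 4.51 in HDAC3FF and 5.11, 5.07 and 4.96 in HDAC3ΔIEC, a rise of 0.57 ± 0.08 (SE, limma adjusted p = 0.0402) at signals below the median of all genes.

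Cbr3, a carbonyl reductase named here after its values were seen, read 7.25, 7.98 and 6.51 in HDAC3FF and 9.04, 9.30 and 9.60 in HDAC3ΔIEC. Its difference of 2.07 ± 0.34 (SE) just missed the threshold (limma adjusted p = 0.0564). It passed with an intensity trend (limma adjusted p = 0.0274), with array weights (0.0253), with dim genes left out below the 25th percentile (0.0399) or the median (0.0270), without HDAC3FF replicate 2 (0.0352) or 3 (0.0232) and without replicate 3 of both groups (0.0237). Cbr3 moved away from the threshold with the replicate block (limma adjusted p = 0.157) and with ordinary unmoderated statistics (adjusted p = 0.359). The median of these targets was 0.17 (0.10 without HDAC3FF replicate 3) with 22 of 31 differences positive, and the groups did not overlap for 14 of them, 12 higher and 2 lower, beside 8.45% and 7.70% of all genes. The 3 calls also rested on few arrays: none of the 31 passed without HDAC3FF replicate 1 or without HDAC3ΔIEC replicate 2 or 3, 1 passed without HDAC3ΔIEC replicate 1, and 6 passed without HDAC3FF replicate 3. Aldo-keto reductases and glutathione transferases have near-identical copies whose RNA can reach the same probes.

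**Figure D4:**
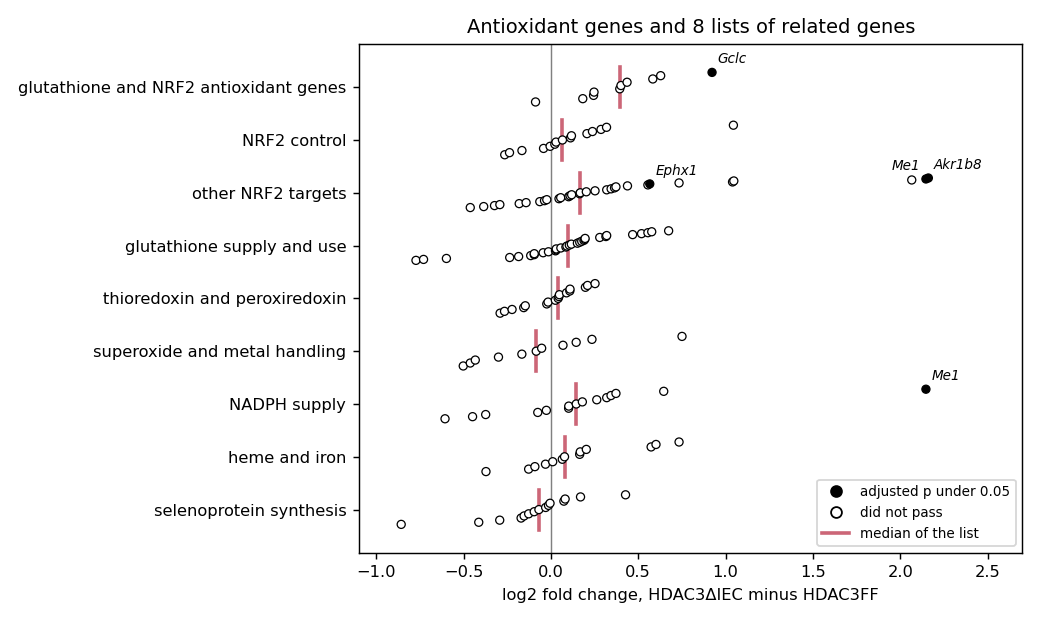
Log2 fold change (x axis, HDAC3ΔIEC minus HDAC3FF) of every measured gene in the set of 10 and in 8 lists of related genes (y axis); filled points passed at an adjusted p under 0.05 and are named, and vertical bars are list medians. The bar of the 10 genes stands at 0.40, and the list medians lie between -0.08 and 0.17.

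No gene passed with limma among 32 measured genes of glutathione supply and use, whose median was 0.10. Of the 32, 8 had an unadjusted p under 0.05, against 11.2% of all genes. The median was 0.20 without HDAC3FF replicate 2, 0.05 without HDAC3FF replicate 3, 0.03 without HDAC3ΔIEC replicate 3 and -0.06 without replicate 3 of both groups. Slc7a11, the cystine importer that brings in the limiting amino acid, had 0.55 ± 0.10 (SE, limma adjusted p = 0.0670) at low signals, 3.73, 3.49 and 3.66 in HDAC3FF and 4.23, 4.08 and 4.24 in HDAC3ΔIEC. The groups did not overlap, and Slc7a11 passed with an intensity trend (limma adjusted p = 0.0257) and with array weights (0.0434). With the replicate block it did not (limma adjusted p = 0.14), nor with ordinary unmoderated statistics (adjusted p = 0.29). Cth, which makes cysteine from cystathionine, differed the other way, reading 9.91, 9.81 and 10.02 in HDAC3FF and 9.45, 9.12 and 9.38 in HDAC3ΔIEC, with a difference of -0.60 ± 0.11 (SE, limma adjusted p = 0.0793). All 3 knockout arrays lay below the controls. Gpx4, the peroxidase of membrane lipids, had 0.31 ± 0.09 (SE, limma adjusted p = 0.245), and its second probe set 0.34 ± 0.14 (SE).

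The thioredoxin and peroxiredoxin list, with 17 measured genes, had no gene that passed with limma. In it 1 gene had an unadjusted p under 0.05, against 11.2% of all genes. The list's median of 0.04 took small negative values without HDAC3FF replicate 3 (-0.04) or HDAC3ΔIEC replicate 2 (-0.011). Txn1, the thioredoxin that TXNRD1 reduces, had signals of 12.33, 12.44 and 12.35 in HDAC3FF and 12.35, 12.38 and 12.32 in HDAC3ΔIEC, a difference of -0.02 ± 0.08 (SE, 95% interval -0.21 to 0.16). The smallest p in that list were those of Txnrd3 at -0.27 ± 0.11 (SE, limma adjusted p = 0.427) and Sesn1, a sestrin, at -0.15 ± 0.08 (SE, limma adjusted p = 0.608). None of 11 superoxide and metal handling genes passed with limma, and 4 had an unadjusted p under 0.05, against 11.2% of all genes. Of the 11 differences 7 were negative, while 53.5% of all genes had positive differences. The median of the 11 was -0.08, and it was -0.13 without HDAC3FF replicate 2 and -0.14 without HDAC3FF replicate 3. Cat, catalase, had -0.46 ± 0.17 (SE, limma adjusted p = 0.340), with all knockout arrays below all controls, and -0.21 without replicate 3 of both groups. The superoxide dismutases Sod1 and Sod2 had -0.05 ± 0.08 and 0.14 ± 0.14 (SE, limma adjusted p = 0.892 and 0.818), with Sod2 at 0.0022 without HDAC3FF replicate 3 and 0.26 without HDAC3FF replicate 2. The metallothionein Mt1 had 0.75 ± 0.21 (SE, limma adjusted p = 0.213), and 0.49 without HDAC3FF replicate 3.

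Me1, also counted among the other NRF2 targets, was the 1 of 15 measured NADPH supply genes to pass, beside 0.701% of all genes. None fell and 14 did not pass. No gene of this list passed without HDAC3FF replicate 1 or without HDAC3ΔIEC replicate 2 or 3. The median was 0.14, and it was 0.34 without HDAC3FF replicate 2, 0.05 without HDAC3FF replicate 3 and 0.09 without HDAC3ΔIEC replicate 1. Nadk, the kinase that makes NADP from NAD, read 8.88, 8.98 and 8.66 in HDAC3FF and 9.42, 9.49 and 9.55 in HDAC3ΔIEC, and its difference of 0.65 ± 0.10 (SE) just missed the threshold (limma adjusted p = 0.0533). It passed with array weights (limma adjusted p = 0.0274), with dim genes left out below the 25th percentile (0.0488) or the median (0.0474), without HDAC3FF replicate 3 (0.0382) and without replicate 3 of both groups (0.0464). Nadk moved away from the threshold with the replicate block (limma adjusted p = 0.171) and with ordinary unmoderated statistics (adjusted p = 0.29). None of 13 heme and iron genes passed with limma (median 0.08). Of the 13, 3 had an unadjusted p under 0.05, against 11.2% of all genes. Alas1, the first enzyme of heme synthesis, had 0.57 ± 0.11 (SE, limma adjusted p = 0.0793, 0.0395 with array weights and 0.134 with the replicate block). Ftl1, ferritin light chain, had 0.73 ± 0.23 (SE, limma adjusted p = 0.267, 0.0497 without replicate 3 of both groups and 0.148 with the replicate block). The heme and iron median was -0.02 without HDAC3FF replicate 3, 0.14 without HDAC3FF replicate 2, 0.04 without HDAC3ΔIEC replicate 2 and 0.19 without HDAC3ΔIEC replicate 3.

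Gpx1, Gpx2 and Txnrd1 encode selenoproteins, whose synthesis needs a dedicated decoding machinery. None of 15 genes of selenoprotein synthesis and other selenoproteins passed with limma, and 3 had an unadjusted p under 0.05, against 11.2% of all genes. Of the 15 differences 11 were negative (median -0.07), while 53.5% of all genes had positive differences. The median was -0.18 without HDAC3FF replicate 3, -0.03 without HDAC3FF replicate 2 and -0.0055 without HDAC3ΔIEC replicate 1. Selenow, a small selenoprotein, read 10.48, 10.54 and 10.18 in HDAC3FF and 9.69, 9.75 and 9.18 in HDAC3ΔIEC, a difference of -0.86 ± 0.17 (SE, limma adjusted p = 0.0950). It passed with array weights (limma adjusted p = 0.0420), without HDAC3FF replicate 3 (0.0457) and without replicate 3 of both groups (0.0151). Neither the replicate block (limma adjusted p = 0.0866) nor ordinary unmoderated statistics (adjusted p = 0.397) gave a call. Trnau1ap, which binds the selenocysteine transfer RNA, had -0.41 ± 0.15 (SE, limma adjusted p = 0.348). Selenow and Trnau1ap lay lower on all knockout arrays than on all controls, as did 7.70% of all genes. Gpx1 and Txnrd1 lay on the opposite side, while Gpx2 had a difference of -0.09 with overlapping groups.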

How the data were processed

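Total RNA was measured on 6 arrays, 3 per genotype. The authors deposited log2 signals, 1 per probe set and array; the submitters' processing notes name Affymetrix Power Tools, while its version, background correction and normalization are not stated in the labels. The log2 scale was read from the range of the deposited values, 2.54 to 13.55 for the genes used. Of 24939 probe sets, 21105 name 1 gene, 1254 several and 2580 none; symbols were updated through Entrez numbers (21022 matched RefSeq GRCm38.p6, 0 changed). Each of 19533 genes was represented by its brightest probe set, by the mean over 6 arrays. Array medians lay between 5.30 and 5.35, and no pair of arrays shared equal signals at more than a fraction of 0.00133 of genes.

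Groups were compared with limma 3.58.1 (lmFit, eBayes, two-sided, no covariate) in R 4.3.3, adjusted by Benjamini-Hochberg over all genes and called at 0.05. Standard errors and 95% intervals use the moderated variance with 3.26 prior degrees of freedom. On simulated data with 3 arrays against 3 and 19533 genes, 28.6% of genes changed by 0.5, 76.8% by 1 and 96.4% by 2 were called, and 84 of 193330 unchanged genes. Exact permutation tests and promoter searches used Python 3.11.15, and figures matplotlib 3.10.9.

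The members and lists were chosen with earlier results of these data known. Some genes stand in several lists. Named genes are the 10; Hdac3; in each related list every called gene or, up to 2, those with the smallest p; 8 redox genes (Keap1, Bach1, Slc7a11, Gpx4, Txn1, Cat, Sod1, Sod2); Epcam, Vil1, Ptprc, Cd68, Marco, Cd163 and the 2 brightest genes of each marker list. Cbr3, Gsta3, Gsta4, Gstp1 and Eif2s3y were named after their values were seen. Alternatives changed the block, prior, weights, normalization, dim filter, probe set rule, threshold, statistic and arrays used; leaving out replicate 3 of both groups was added after seeing the data. Of the 2 brightest genes of each marker list, C1qa passed and no other did.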

Additional observations from a re-analysis of the deposited data

How the results depend on the processing

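Gclc was the 1 of the 10 genes that passed. None passed with the replicate block (0), with adjustment over all probe sets (0), with ordinary unmoderated statistics (0, with an unadjusted p under 0.05 for 4 of the 10, against 7 with limma) or with a log2 fold change of at least 1 required (0), and 2 passed with array weights and at an adjusted p under 0.10. With each array left out the count ran from 0 to 1. Over all genes the count of 137 became 12 with the replicate block, 357 with array weights, 90 with adjustment over all probe sets, 0 with ordinary statistics (1858 with an unadjusted p under 0.05, against 2192 with limma), 321 at an adjusted p under 0.10, 73 with the log2 fold change of at least 1, 744 without replicate 3 of both groups, and 13 to 430 with each array left out. Deviations of same-numbered arrays from their group means correlated at -0.02, -0.07 and -0.20, and those of differently numbered arrays at -0.211 to 0.201. Deviations from a mean of 3 arrays are tied to each other, so these values cannot show whether the replicate numbers pair the arrays. Under the block Gclc had a limma adjusted p of 0.118.

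The median of the 10 genes moved by less than its spread between arrays (SD 0.13) under every alternative run for it, from 0.30 to 0.51. Leaving out 1 of 3 arrays can seldom move a group by more than that spread, so this is a weak check. The same holds for the medians of the related lists. Of 200 values of the 10 genes under alternatives, 183 kept their direction and side of the threshold, 9 lost and 3 gained a call and 5 changed sign. Only Gclc had a call to lose, and it kept that call in 11 of 20 alternatives. The other 9 genes began without a call, and several alternatives cannot change a log2 fold change, so the 183 do not measure stability. The 5 changes of sign were those of Nqo1 with array weights (-0.033), without replicate 3 of both groups (-0.36) and without HDAC3FF replicate 3 (-0.31, in a range of -0.31 to 0.60 with arrays left out), and of Gpx2 without HDAC3FF replicate 2 (0.05) or HDAC3ΔIEC replicate 3 (0.17, in a range of -0.26 to 0.17). Among the related genes named, Keap1 and Txn1 changed sign, at values near 0. Hdac3, C1qa and Cd68 were rerun as well and kept their signs. Marker and sex-linked genes given as levels were not rerun. Keap1 had 0.0066 with array weights, 0.0108 with quantile normalization, 0.0096 with centring and 0.0005 without replicate 3 of both groups, and ran from -0.055 to 0.066 with arrays left out. Txn1 ran from -0.046 to 0.0101. Of the 160 medians of related lists under alternatives, 152 moved by less than their spread, but many of these could not move. The replicate block, intensity trend, robust prior, adjustment over all probe sets, ordinary statistics and changed thresholds left every log2 fold change as it was. Without replicate 3 of both groups the glutathione supply and use median was -0.064. The cause of these changes was not tested. Signal over background is not given, which limits the dim genes Slc7a11 and Ephx1.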

Other observations

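In the NRF2 target list, 3 glutathione transferases lay higher on all HDAC3ΔIEC arrays than on all controls, as did 8.45% of all genes. They were named after their values were seen, and none passed over all genes with all 6 arrays. The list also holds the transferases Gstm1 and Gstm3, whose values are not given here, so the 3 do not stand for the class. Gsta3, an alpha class transferase, read 6.79, 6.68 and 5.84 in HDAC3FF and 7.36, 7.46 and 7.61 in HDAC3ΔIEC (1.04 ± 0.24, SE, limma adjusted p = 0.127). Gsta4, which conjugates the lipid peroxidation product 4-hydroxynonenal, read 7.92, 8.04 and 6.79 in HDAC3FF and 8.58, 8.84 and 8.48 in HDAC3ΔIEC (1.05 ± 0.31, SE, limma adjusted p = 0.246). Gstp1, the pi class transferase, read 11.77, 12.02 and 11.77 in HDAC3FF and 12.25, 12.20 and 12.14 in HDAC3ΔIEC (0.34 ± 0.10, SE, limma adjusted p = 0.226). HDAC3FF replicate 3 was the lowest control for Gsta3 and Gsta4, as it was for Nqo1, Akr1b8 and Cbr3. Without that array Gsta3 had 0.74 and passed (limma adjusted p = 0.0248), and Gsta4 had 0.65 and did not (limma adjusted p = 0.0575). Without replicate 3 of both groups both passed, Gsta3 at 0.68 and Gsta4 at 0.73 (limma adjusted p = 0.0249 and 0.0322). With the replicate block neither passed (limma adjusted p = 0.278 and 0.221).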
